A study of Mus musculus with 6 samples.

Results

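Qk, Khdrbs1, Khdrbs2 and Khdrbs3 are 4 genes of the STAR family (signal transduction and activation of RNA), RNA-binding proteins built around a single KH domain. They were taken by symbol from a table of 24041 genes, and all 4 were found and passed the filter on low counts. The table describes cells of mouse cerebral cortices into which plasmids had been brought by electroporation (short electric pulses that open the cell membrane), sorted by their green fluorescence. In both groups the cells received GFP, the green fluorescent protein. One group also received wild-type PRPF6 and the other mutant PRPF6, with 3 libraries each, and PRPF6 is a protein of the tri-snRNP, the particle that joins the spliceosome before splicing starts. The labels give neither the strain and age of the mice, nor the promoter of the plasmids, nor the PRPF6 mutation, and no group went without PRPF6. Whether each library is a separate animal is not labelled either, so all errors measure the spread between libraries, part of which may be technical.

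STAR proteins bind short motifs in RNA and change how it is spliced, exported, translated or degraded. Qk encodes quaking, which is known from the quaking mouse with its defect of myelin and is abundant in neural stem cells and glia of the developing brain. Khdrbs1 encodes Sam68, which is made in most cells. Khdrbs2 (SLM1) and Khdrbs3 (SLM2, also called T-STAR) are its relatives, best known in neurons, where the family chooses between neurexin exons.

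The part of the genes that makes them a family is shown first, because reads shared between relatives could have been counted for the wrong gene. The lines give the 90 coding bases in which the 3 Khdrbs genes are most alike, part of the KH domain, with capitals for the 59 bases that all 3 share.
Khdrbs1: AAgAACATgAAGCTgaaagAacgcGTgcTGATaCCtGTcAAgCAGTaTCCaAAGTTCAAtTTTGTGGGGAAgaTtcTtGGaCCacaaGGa
Khdrbs2: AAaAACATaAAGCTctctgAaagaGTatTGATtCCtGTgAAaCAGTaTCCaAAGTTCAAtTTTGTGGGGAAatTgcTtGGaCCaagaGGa
Khdrbs3: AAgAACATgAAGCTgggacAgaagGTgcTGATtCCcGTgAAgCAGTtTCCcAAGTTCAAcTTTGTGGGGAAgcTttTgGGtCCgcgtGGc
In each gene the stretch runs from exon 2 into the next exon. On GRCm38 its ends lie at chr4:129727636-129730254 on the minus strand for Khdrbs1, chr1:32243974-32333501 on the plus strand for Khdrbs2 and chr15:68995117-69013393 on the plus strand for Khdrbs3, and the introns between are not shown. Identity between coding sequences was taken over the aligned bases only, with gaps and unaligned ends left out. On this measure Khdrbs2 and Khdrbs3 were 73.3% identical, over 992 aligned bases. Khdrbs1 was 68.5% identical to Khdrbs2 and 68.0% to Khdrbs3, over 994 and 991 of its 1329 coding bases. Qk was between 58.4% and 61.4% identical to the others. The longest run of identical bases between annotated transcripts of any pair was 29 bases, between Khdrbs1 and Khdrbs2. RSEM gives fractional counts where it divides reads between genes. Of the 24 values of these genes 0 differed from a whole number by more than 1e-06, while 8.15% to 9.15% of all values in a library did.

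The sequence that quaking binds is shown next, because it occurs in the transcripts of Qk and Khdrbs2 themselves. Quaking prefers ACTAAC or ACTAAT (written as DNA) with a second site, TAAC or TAAT, close by. The 3′ UTR of the annotated transcript with the longest coding sequence was searched on the transcript strand for both parts, not overlapping and at most 20 bases apart. Such a pair was found in Qk and Khdrbs2 and in neither Khdrbs1 nor Khdrbs3, against 13.1% of 19231 genes with a 3′ UTR. It was also present in 3 of 14 genes known as quaking targets, among them Cdkn1b (an inhibitor of the cell cycle) and Hnrnpa1 (a splicing repressor). The lines give each site in 30 bases, with both parts in capitals.
Qk: atgttaTAATaccaacctACTAACtctgga
Khdrbs2: tagtaaacACTAATgtaTAACatgttaatg
Cdkn1b: ACTAATgctcccacagaattgatttTAACc
Hnrnpa1: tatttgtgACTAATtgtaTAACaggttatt
These lie on GRCm38 at chr17:10206544-10206573 (minus strand), chr1:32658499-32658528, chr6:134922878-134922907 and chr15:103244421-103244450 (plus strand). The searched 3′ UTR of Qk is 7014 bases long and that of Khdrbs2 1027 bases, against a median of 834 bases, and longer UTRs hold more matches. A match describes the sequence and is no evidence of binding in these cells.

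Library totals ran from 45115122 to 60600617 expected counts, so that 1 count was worth 0.0164 to 0.0228 CPM (counts scaled to a common library size with edgeR's TMM factors). Prpf6 itself ranged from 124 to 166 CPM in the wild-type libraries and from 125 to 145 CPM in the mutant ones. The species of the plasmid is not labelled, so these counts do not check the labels. Neuronal and radial glia genes were found in every library, with Tubb3 at 544 to 950 CPM and Vim at 462 to 900 CPM. The neuronal gene Neurod6 was uneven, at 57.5 CPM in mutant replicate 1 and 583 to 1276 CPM elsewhere. Other cells were uneven. The 9 red blood cell entries summed to 16890 CPM in wild-type replicate 3 and to 79.1 to 2580 CPM elsewhere. Hbb-b2 and Hbb-bt, 2 of these entries, had identical values in every library, and both are counted in the sum. The 5 meningeal fibroblast genes summed to 1602 CPM in wild-type replicate 3 and to 10.2 to 156 CPM elsewhere. The 7 microglia genes summed to 647 CPM in mutant replicate 2 and to 20.7 to 245 CPM elsewhere. In such bulk libraries fewer cells of a type and less RNA per cell cannot be told apart.

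The design allows 1 comparison, of mutant PRPF6 against wild-type PRPF6, and the question here is where the STAR genes stand in it. Khdrbs1 was nearly level, and Khdrbs3 varied far more within groups than its group means differed. Among the 4 genes Qk was higher and Khdrbs2 lower in every mutant library than in any wild-type library. Qk and Khdrbs2 had been noticed for these differences in an earlier look at the same libraries, so their values are a description and carry no test. Across all 14451 tested genes 0 passed edgeR's quasi-likelihood test (0%, Benjamini-Hochberg adjusted p under 0.05), and 489 stood at an unadjusted p under 0.05. limma-voom also called 0, and DESeq2 called 10 of the 3238 genes to which it gave an adjusted p (0.309%).

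Qk (ENSMUSG00000062078, chromosome 17, 10202601 to 10319854, minus strand, GRCm38) measured 312, 285 and 322 CPM in replicates 1, 2 and 3 of the wild-type group. With mutant PRPF6 it was at 541, 397 and 524 CPM. The lowest mutant library, replicate 2, lay above the highest wild-type library, which 4.60% of all tested genes also showed in this direction. The means were 306 ± 19.2 CPM and 487 ± 78.8 CPM (SD, n = 3 each), 1.59 times higher with mutant PRPF6 (log2 difference 0.67 ± 0.16, SE). In size this exceeded 80.9% of the differences of tested genes. Leaving out 1 library at a time gave 0.59 to 0.80, the highest value without mutant replicate 2. Wild-type libraries were close together and mutant libraries spread more, with a coefficient of variation of 6.28% and 16.2%. Counts per gene do not separate the quaking isoforms, which differ in the end of the protein and in where they act in the cell.

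**Figure D1:**
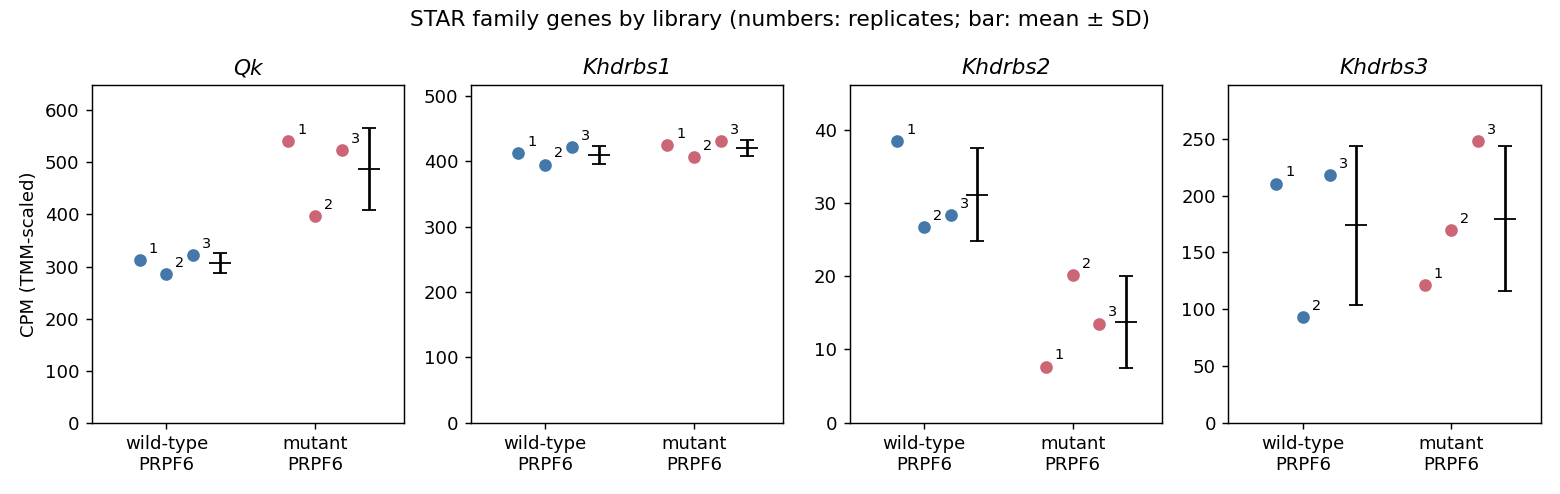
CPM of Qk, Khdrbs1, Khdrbs2 and Khdrbs3 in each library (points, numbered by replicate) with the mean and SD of each group (n = 3); each panel has its own axis starting at 0. The groups are apart for Qk (285 to 322 against 397 to 541 CPM) and Khdrbs2 (26.7 to 38.5 against 7.65 to 20.2 CPM) and overlap for the other 2 genes.

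Khdrbs2 (ENSMUSG00000026058, chromosome 1, 32172714 to 32658568, plus strand) was the scarcest of the 4. It measured 38.5, 26.7 and 28.4 CPM in replicates 1, 2 and 3 of the wild-type group, from 1791, 1626 and 1421 counts. With mutant PRPF6 it was at 7.65, 20.2 and 13.5 CPM, from 444, 1006 and 593 counts. Mutant replicate 1 was lowest and mutant replicate 2 came nearest to the wild-type libraries, and the groups did not overlap, as for 4.54% of tested genes in this direction. The means were 31.2 ± 6.37 CPM and 13.8 ± 6.29 CPM (SD, n = 3 each), 2.26 times lower with mutant PRPF6 (log2 difference −1.18 ± 0.39, SE). The size exceeded that of 91.3% of tested genes. It ran from −0.89 without mutant replicate 1 to −1.56 without mutant replicate 2. The gene spans other annotated genes, of which Gm5415 and Gm9839 on the opposite strand have counts of their own in the table. Gm5415 had 168, 158 and 72.1 counts in replicates 1, 2 and 3 of the wild-type group and 7, 40.9 and 68.5 counts in those of the mutant group, and Gm9839 had 1 to 66.4 counts. All 6 counts of Khdrbs2 were whole, that is, without a sign of reads divided with these genes. Whether the counting used strand is not given, and the part of opposite-strand reads in the Khdrbs2 counts was not tested.

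Khdrbs1 (ENSMUSG00000028790, chromosome 4, 129703164 to 129742303, minus strand) was at 413, 395 and 422 CPM with wild-type PRPF6. With mutant PRPF6 it was at 424, 406 and 431 CPM. All 6 libraries lay within a narrow band and the groups overlapped. The means were 410 ± 13.5 CPM and 420 ± 12.5 CPM (SD, n = 3 each), with a log2 difference of 0.037 ± 0.12 (SE). The pooled SD within groups was 0.046 on the log2 CPM scale. Of the 823 genes whose mean CPM lay within 2 times that of Khdrbs1, 99.9% had a larger SD, with a median of 0.207.

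Khdrbs3 (ENSMUSG00000022332, chromosome 15, 68928420 to 69101211, plus strand) varied most for its level. It measured 211, 93.3 and 218 CPM in replicates 1, 2 and 3 with wild-type PRPF6. With mutant PRPF6 the values were 121, 170 and 248 CPM. Wild-type replicate 2 and mutant replicate 1 were low, and the groups overlapped over most of their range. The means were 174 ± 70.2 CPM and 180 ± 64.0 CPM (SD, n = 3 each), with a log2 difference of 0.045 ± 0.36 (SE). Its pooled SD of 0.61 was exceeded by 4.26% of the 2608 genes of like level. The sign depended on single libraries: leaving out wild-type replicate 2 turned the difference to −0.26, leaving out mutant replicate 3 also to −0.26, and leaving out mutant replicate 1 gave 0.26.

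**Figure D2:**
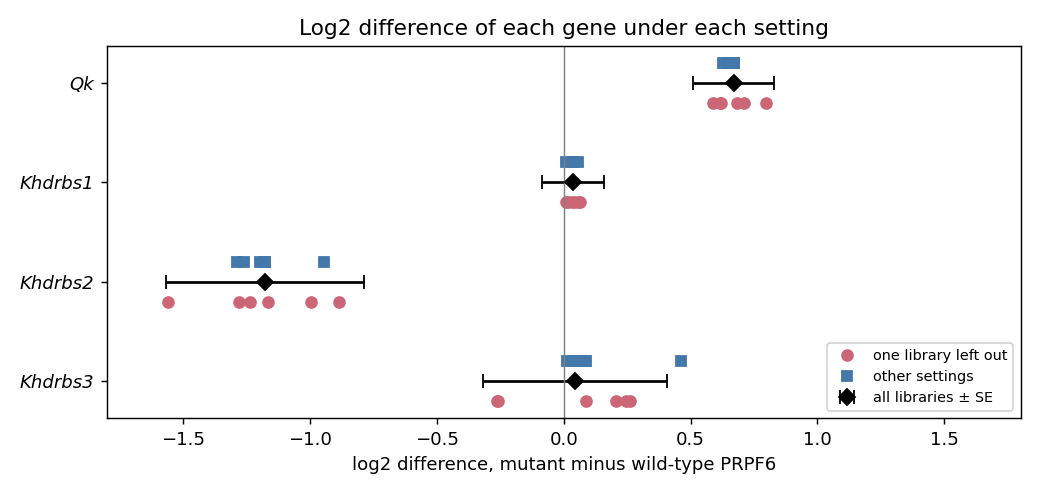
Log2 difference between mutant and wild-type PRPF6 for each gene, with all libraries (diamond, with the standard error), with 1 library left out (circles) and under the other settings (squares). The squares are other normalizations, filters, tests and designs, and also the setting with both wild-type replicate 3 and mutant replicate 1 left out. That last setting gave the Khdrbs3 square at 0.46. All values of Qk lie between 0.59 and 0.80 and all of Khdrbs2 between −1.56 and −0.89, whereas those of Khdrbs3 fall on both sides of 0.

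To set the genes beside each other, CPM were divided by the median length in kilobases of each gene's annotated transcripts. On this scale of level Khdrbs1 was highest in all 6 libraries, at 181 ± 5.998 CPM per kilobase in the wild-type and 186 ± 5.55 in the mutant libraries (SD, n = 3 each). Khdrbs3 followed at 113 ± 45.5 and 117 ± 41.5 and Qk at 54.4 ± 3.41 and 86.5 ± 14.0. Khdrbs2 was lowest in all 6 libraries, at 13.7 ± 2.79 and 6.05 ± 2.76. Khdrbs3 and Qk were neighbours whose order was not fixed: with mutant PRPF6 their ranges overlapped (78.7 to 161 and 70.5 to 96.1 CPM per kilobase), and in mutant replicate 1 Qk was the higher. Within the Khdrbs genes, Khdrbs2 made up 3.65% to 5.02% of the level per length in wild-type libraries and 1.24% to 2.97% in mutant libraries. The share of Khdrbs3 ranged from 24.5% to 41.6% and from 29.2% to 45.0%.

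Between the groups, markers of radial glia differed in the direction of Qk and markers of neurons in the direction of Khdrbs2. Radial glia, from which cortical neurons descend, had 10 markers that summed to 2154, 2621 and 1903 CPM (replicates 1, 2 and 3) with wild-type and to 4721, 2676 and 3976 CPM with mutant PRPF6. All 10 had higher fitted means with mutant PRPF6 (median log2 difference 0.64), but the groups did not overlap in only 3 of them (30%). Mutant replicates 1 and 3 had the highest sums and were high in Qk as well. Among the wild-type libraries the order was reversed. Replicate 2 had the highest sum and the lowest Qk (285 CPM), and replicate 3 the lowest sum and the highest Qk (322 CPM). Of 10 neuron markers all had lower fitted means (median −0.79), and they summed to 3331, 2790 and 3366 CPM with wild-type and 1710, 2804 and 1962 CPM with mutant PRPF6. The neuron sums of the groups overlapped, with mutant replicate 2 above wild-type replicate 2. In 2 of the 10 neuron markers (20%) the groups did not overlap, against 9.14% of all tested genes. No marker was at 0 in any library. The median of all tested genes was −0.0013, 0 of these markers passed over all genes, and the part of the markers in the differences of Qk and Khdrbs2 was not tested.

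**Figure D3:**
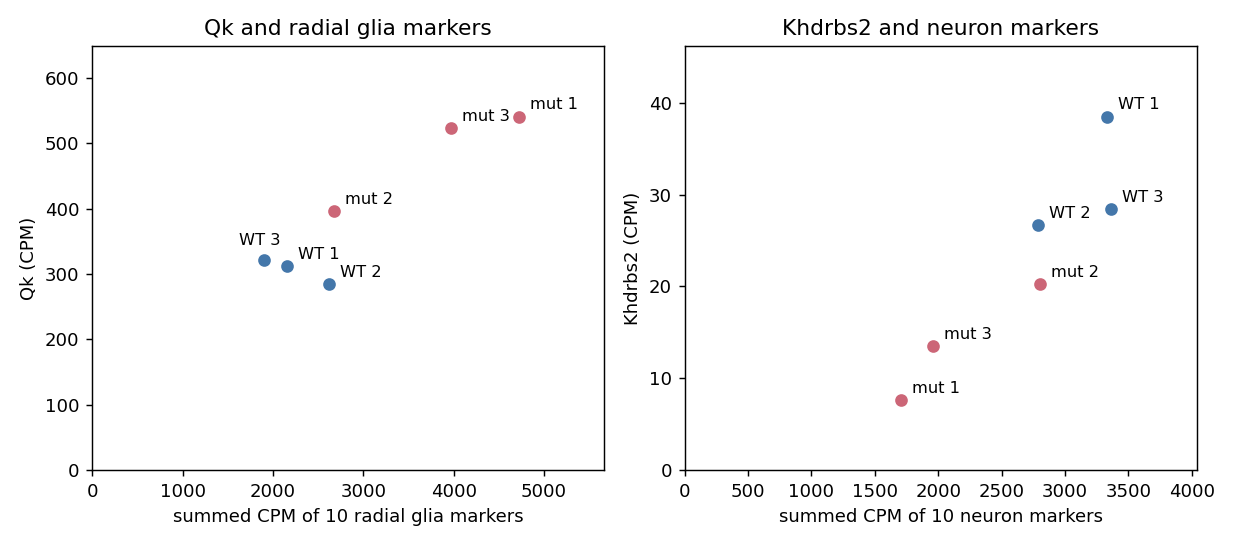
Left, CPM of Qk against the summed CPM of 10 radial glia markers; right, CPM of Khdrbs2 against the summed CPM of 10 neuron markers; each point is a library (WT, wild-type; mut, mutant PRPF6; numbers are replicates). Mutant replicate 2 lies nearest to the wild-type libraries in both panels, at 2676 CPM of radial glia markers and 2804 CPM of neuron markers.

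Both genes were also set against these sums, a calculation chosen after the values had been seen. Per 1000 CPM of radial glia markers, Qk came to 145, 109 and 169 CPM (replicates 1, 2 and 3) with wild-type and to 115, 148 and 132 CPM with mutant PRPF6, so the groups overlapped. Per 1000 CPM of neuron markers, Khdrbs2 was at 11.6, 9.57 and 8.44 CPM with wild-type and at 4.47, 7.21 and 6.89 CPM with mutant PRPF6. The groups stayed apart with this sum, in which Tubb3, Neurod6 and Map2 weigh most. Set against single markers of this list, they stayed apart with Map2 and Rbfox3 and overlapped with each of the others, Syt4 and Snap25 among them. So the separation depended on the markers chosen, and the part of neuron content was not tested. Khdrbs3 per 1000 CPM of neuron markers was at 63.3, 33.4 and 64.9 CPM with wild-type and at 70.9, 60.5 and 126 CPM with mutant PRPF6. Microglia and endothelial cells make quaking too. The microglia sum was 20.7 CPM in mutant replicate 1 and 29.5 CPM in mutant replicate 3, where Qk was highest, and the sum of 6 endothelial markers was 4.43 and 0.89 CPM there and 0.537 to 110 CPM elsewhere. The part of these cells in the Qk difference was not tested. Oligodendrocyte lineage markers, 8 in all, summed to 76.9, 28.9 and 103 CPM with wild-type and to 222, 60.6 and 55.0 CPM with mutant PRPF6. The sum was highest in mutant replicate 1, as were Olig1, Olig2, Cnp, Cspg4 and Myrf. Pdgfra and Sox10 were highest in wild-type replicate 3 (17.9 and 3.64 CPM), and Mog in mutant replicate 2 (0.402 CPM).

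For each gene the 3 named genes with the most similar log2 CPM over the 6 libraries were picked from 9589 genes with a mean of at least 10 CPM. From so many genes, a high correlation over 6 libraries is found by selection alone, and it is given as a description. Mllt6 (Pearson r = 0.991), Repin1 (0.990) and Ankrd40 (0.987) were most like Qk. Repin1, a zinc finger protein, was at 47.1, 44.8 and 52.0 CPM with wild-type and at 84.4, 59.6 and 74.9 CPM with mutant PRPF6. Most like Khdrbs2 were Syt4 (0.993), a synaptotagmin of neurons, Stx16 (0.993), a syntaxin of membrane traffic, and Chmp1b (0.990), a protein of the ESCRT machinery. Syt4, which is among the neuron markers above, was at 126, 98.8 and 99.2 CPM with wild-type and at 38.2, 70.3 and 59.7 CPM with mutant PRPF6. Dak (0.982), Ctdnep1 (0.973) and Ndnl2 (0.970) were most like Khdrbs1, and Tceal1 (0.989), Abtb1 (0.985) and Ulk4 (0.981) most like Khdrbs3. Between the genes of the family themselves, r was −0.91 for Qk and Khdrbs2, 0.73 for Qk and Khdrbs1, and 0.18 for Qk and Khdrbs3. Over the same 6 libraries it was −0.52 for Khdrbs1 and Khdrbs2, 0.65 for Khdrbs1 and Khdrbs3, and 0.21 for Khdrbs2 and Khdrbs3. Qk and Khdrbs2 had been noticed for opposite group differences, so their negative r follows from that choice.

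Of 14 genes known as quaking targets, 0 passed over all genes. Fitted means with mutant PRPF6 were lower in 10 and higher in 4 (median log2 difference −0.14). Among all tested genes 7252 were lower and 7199 higher (median −0.0013). Map1b, a microtubule-associated protein whose RNA quaking binds, was at 3681, 3240 and 3111 CPM with wild-type and at 2956, 2367 and 2106 CPM with mutant PRPF6 (log2 difference −0.43 ± 0.16, SE). Rtn4, which encodes Nogo, was at 238, 185 and 182 CPM and at 160, 149 and 149 CPM (−0.40 ± 0.16, SE). Numb, a regulator of cell fate, was at 37.2, 35.2 and 31.8 CPM and at 51.0, 37.4 and 37.9 CPM (0.28 ± 0.22, SE). In these 3 the groups did not overlap, 21.4% of the list against 9.14% of all tested genes. Map1b and Rtn4 are abundant in neurons, and the part of neuron content in their differences was not tested. Ninj1, an adhesion protein, overlapped at 16.9 to 20.4 and 8.97 to 19.7 CPM. The myelin genes among the targets were scarce, with Mbp at 14.4 and 17.1 CPM and Mag at 0.207 and 0.412 CPM on average with wild-type and mutant PRPF6, named after their values were seen.

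Of 12 genes known as targets of the Khdrbs proteins, 0 passed, with 6 higher and 6 lower (median 0.017). Aldh1a3, an enzyme of retinoic acid synthesis, was at 1.16, 8.76 and 5.38 CPM with wild-type and at 0.0172, 1.05 and 0.0456 CPM with mutant PRPF6. Its log2 difference was −3.78 ± 1.69 (SE). The values of mutant replicates 1 and 3 were near the floor, as 1 count was worth 0.0172 and 0.0228 CPM there. Aldh1a3 was the 1 gene of the list whose groups did not overlap (8.33% of it, near the 9.14% of all tested genes). Nrxn2, a neurexin gene of synaptic adhesion, overlapped at 27.3 to 51.8 CPM with wild-type and 20.2 to 38.9 CPM with mutant PRPF6. The groups of Nrxn3, named after its values were seen, overlapped too, with means of 81.9 and 127 CPM. Mtor, a growth kinase, was at 29.3 to 62.2 and 53.1 to 104 CPM, and Sgce, a sarcoglycan, at 32.8 to 35.7 and 35.2 to 49.2 CPM. These counts do not show which exons were joined, so the splicing choices that the family makes in the neurexins were not measured.

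**Figure D4:**
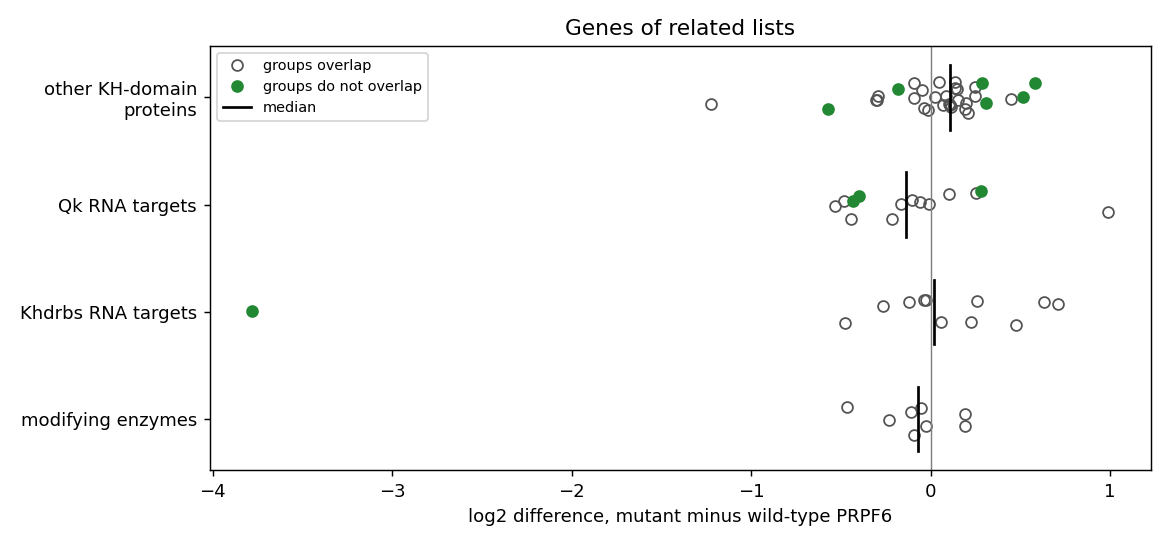
Log2 difference between mutant and wild-type PRPF6 for each tested gene of 4 related lists, with filled points where the libraries of the groups do not overlap and a bar at the median; vertical scatter within a row carries no meaning. Medians lie between −0.14 and 0.11, and the point far to the left is Aldh1a3, which was near the floor in mutant replicates 1 and 3.

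Among 32 other proteins with KH domains 0 passed, 21 were higher and 11 lower (median 0.11), and the groups did not overlap in 6, or 18.8% of the list against 9.14% of all tested genes. Pcbp4 and Pcbp3, poly(C)-binding proteins, were at 204 to 248 and 280 to 403 CPM, and at 40.9 to 56.5 and 60.6 to 101 CPM, with wild-type and mutant PRPF6. Sf1, the branch point binding protein, a relative of the STAR family, was at 285 to 326 and 333 to 444 CPM (log2 difference 0.29 ± 0.15, SE). Mex3b, an RNA-binding ubiquitin ligase, was lower, at 75.6 to 100.3 and 33.5 to 74.0 CPM. Mex3d (0.31) and Ankrd17 (−0.18), the others whose groups did not overlap, were named after their values were seen. Of 9 enzymes that modify STAR proteins, Ptk6 was filtered out as too low, and of the remaining 8, 0 passed and 0 had groups apart, against 9.14% of all tested genes (median −0.072). Src, a tyrosine kinase that phosphorylates Sam68, was at 41.0 to 57.9 and 30.4 to 43.9 CPM. Mapk3 was at 82.8 to 88.8 and 60.9 to 84.3 CPM and Nek2 at 47.7 to 77.0 and 52.5 to 91.8 CPM.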

How the data were processed

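The deposited table holds expected counts for each gene, which the authors made with RSEM against mm10 (per the submitters' processing notes) and did not scale for depth. Not given in the sources used here are the aligner, the annotation, strand handling and filters. Amplification from little RNA without molecular identifiers means that counts are not independent molecules. Columns were matched to samples by the sample descriptions.

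Expected counts were rounded, filtered with filterByExpr (14451 of 24041 genes kept), scaled with TMM factors and fitted on group alone by the robust, two-sided quasi-likelihood test of edgeR 4.0.16 (R 4.3.3), with Benjamini-Hochberg adjustment over all tested genes and a threshold of 0.05. The standard error of a log2 difference is its size divided by the square root of F. Log2 CPM used a prior count of 2. The steps were tested on simulated data. The genes of the family and the gene lists were chosen with earlier results of these data known. Named were the 4 genes, Prpf6, the 4 genes of smallest unadjusted p per related list, the 3 most correlated genes per member and leading markers, except that some are not reported here.

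Coordinates, transcript lengths and sequences come from GENCODE M21 (GRCm38, the assembly behind mm10), matched by symbol for all 4 genes, with alignments by Biopython 1.88. The 2810403A07Rik row was read as Khdc4 by its older symbol. Alternatives were DESeq2 1.42.0, limma-voom (limma 3.58.1), other scalings and filters, a replicate block and leaving out each library.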

Additional observations from a re-analysis of the deposited data

How the results depend on the processing

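DESeq2's Wald test called 10 genes, all higher with mutant PRPF6, where edgeR called 0. Every other setting run, an adjusted p under 0.1 included, also called 0. Under the 8 other planned scalings, filters, tests and designs the log2 difference ran from 0.64 to 0.67 for Qk, −1.29 to −1.18 for Khdrbs2, 0.010 to 0.038 for Khdrbs1 and 0.015 to 0.087 for Khdrbs3. Leaving out 1 library gave 0.59 to 0.80, −1.56 to −0.89, 0.0095 to 0.063 and −0.26 to 0.26 in the same order, so only Khdrbs3 changed sign. With wild-type replicate 3 and mutant replicate 1 both left out, a setting chosen after the data were seen, Qk was at 0.63, Khdrbs2 at −0.94, Khdrbs1 at 0.057 and Khdrbs3 at 0.46.

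With the replicate number as a block, edgeR called 0 genes and the differences were 0.66 for Qk, −1.26 for Khdrbs2, 0.038 for Khdrbs1 and 0.086 for Khdrbs3. The numbers pair the libraries by number only: correlations of same-numbered deviations were 0.054, 0.061 and −0.26, and not every library correlated best with its own number. Unadjusted p under 0.05 stood for 307 genes with the block and 489 without it. With the longest transcript as the length, 4 libraries kept the order Khdrbs1, Khdrbs3, Qk, Khdrbs2, against 5 with the median one. The lowest count behind any value of the 4 genes was 444.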
